A study of Homo sapiens with 3 samples.

Results

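The chemokines that act through the receptor CXCR2, together with CCL20, were examined in the human colorectal cancer line HCT-116 after loss of stearoyl-CoA desaturase-1 (SCD1) activity or of the SCD gene. The genes were CXCL1, CXCL2, CXCL3, CXCL5, CXCL6, CXCL8 and CCL20, 7 of the 19775 genes that the arrays read with a probe set assigned to 1 gene. They were chosen by their family and on their MAS5 signals in these same arrays, so their ratios are given as a description and carry no test. A total of 3 arrays was analysed. They held SCD1-WT cells treated with the SCD1 inhibitor T-3764518, SCD1-KO cells, and SCD1-WT cells treated with DMSO, and each condition had 1 array, so no difference has a replicate check. The inhibitor was applied at 100 nM for 24 h by the methods, which also give DMSO as the vehicle of the SCD1-KO cells, although neither is in that array's labels. SCD1-KO cells were made with Cas9 and a pair of guide RNAs and were grown from wells seeded at about single-cell density, so a difference from SCD1-WT cells can belong to the clone, and the sources used here do not say how many clones the array represents.

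Chemokines are small secreted proteins that draw leukocytes along a gradient. CXCL1, CXCL2, CXCL3, CXCL5, CXCL6 and CXCL8 carry a glutamate-leucine-arginine motif before their paired cysteines, bind CXCR2 and attract neutrophils, and CXCL6 and CXCL8 also bind CXCR1. CCL20 is the ligand of CCR6 and attracts lymphocytes and dendritic cells to epithelia. In intestinal epithelium these genes are low at rest and are switched on by interleukin-1, tumour necrosis factor or bacterial products, largely through NF-kB together with AP-1 and C/EBP factors, and their mRNAs are short-lived.

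The 130 bases before the annotated start of each gene are shown because the 7 promoters carry related NF-kB-type motifs at a similar distance. They were taken from RefSeq on GRCh38.p14, in which all 7 genes were found, and run 5′ to 3′ along the strand of the gene. Capitals mark GGAATTTCC or the NF-kB consensus, on either strand.
CXCL8: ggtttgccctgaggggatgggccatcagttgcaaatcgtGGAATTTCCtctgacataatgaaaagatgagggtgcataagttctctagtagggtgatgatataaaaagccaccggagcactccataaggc
CXCL1: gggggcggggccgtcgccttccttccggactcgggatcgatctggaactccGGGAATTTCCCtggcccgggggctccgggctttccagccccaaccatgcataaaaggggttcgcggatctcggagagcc
CXCL2: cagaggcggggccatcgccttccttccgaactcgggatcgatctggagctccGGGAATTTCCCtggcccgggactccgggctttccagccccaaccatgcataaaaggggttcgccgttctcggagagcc
CXCL3: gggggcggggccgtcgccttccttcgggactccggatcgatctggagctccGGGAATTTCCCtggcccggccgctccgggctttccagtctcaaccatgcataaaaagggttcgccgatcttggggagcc
CXCL5: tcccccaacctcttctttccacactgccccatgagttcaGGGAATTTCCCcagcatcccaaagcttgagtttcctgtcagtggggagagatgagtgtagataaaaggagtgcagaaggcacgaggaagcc
CXCL6: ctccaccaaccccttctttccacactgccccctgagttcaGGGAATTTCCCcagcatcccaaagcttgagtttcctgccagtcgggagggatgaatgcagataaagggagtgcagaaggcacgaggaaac
CCL20: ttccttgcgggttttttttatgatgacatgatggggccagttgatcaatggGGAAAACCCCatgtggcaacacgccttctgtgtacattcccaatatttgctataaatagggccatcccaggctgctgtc

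The printed stretches lie at chr4:73740439-73740568 (plus strand), chr4:73869263-73869392 (plus strand), chr4:74099196-74099325 (minus strand), chr4:74038690-74038819 (minus strand), chr4:73998678-73998807 (minus strand), chr4:73836548-73836677 (plus strand) and chr2:227813712-227813841 (plus strand). GGAATTTCC was found in the 250 bases before the start in all 6 CXC genes, against 0.413% of the 35116 promoters of the table. It began 91 bases before the start in CXCL8, 78 in CXCL1, 77 in CXCL2, 78 in CXCL3, 90 in CXCL5 and 89 in CXCL6. The NF-kB consensus, which overlaps it, was found in all but CXCL8, in CCL20 on the other strand and 79 bases before the start, against 5.21% of promoters. The AP-1 motif TGANTCA was found in CXCL8 (6.57% of promoters), TTGCNNAA, a C/EBP-type motif, in CXCL2 (9.05%) and TATAAA in CXCL8 and CCL20 (10.7%), whereas TGATGNAAT (0.888%) and TGACNNNGC (10.9%) were found in none of the 7. Over 250 bases the promoters of CXCL1 and CXCL3 were 84.0% identical after alignment, those of CXCL1 and CXCL2 78.8%, those of CXCL2 and CXCL3 78.4% and those of CXCL5 and CXCL6 85.6%, while every other pair lay between 50% and 63.2%. A match of letters does not show that a factor was bound.

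The arrays read these genes with 12 probe sets. The filter kept a probe set whose log2 signal, averaged over the 3 arrays, reached the median of the 54675 on the array, a signal of 56.6. This left 6 probe sets of 5 of the genes, and CXCL5 and CXCL6 had none. Log2 ratios of several kept probe sets were combined by their median, and 2-fold or more was called a difference. Where a signal was under 56.6, it was set to 56.6 and the fold is written "at least". CCL20 stood just inside the filter, at a geometric mean signal of 58.4, and the next probe set below it, of CXCL2, at 28.1. CCL20 was kept only because of its signals in inhibitor-treated cells and in SCD1-KO cells, so it could not have passed without a difference.

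Leukocyte, fibroblast and endothelial, and epithelial markers were read, and the epithelial list had the highest median signal on all 3 arrays. Its dimmest marker was CDX2 in inhibitor-treated cells (60.9) and with DMSO (59.6), close to the filter signal in both. In SCD1-KO cells the dimmest was VIL1 (85.8). The 8 epithelial markers lay above 56.6 on each array, and of 9 measured leukocyte markers, each taken at the probe set brightest on average over the arrays, 3, 2 and 2 did so in inhibitor-treated cells, in SCD1-KO cells and with DMSO. Their signals summed to 474, 697 and 342 on these arrays. LYZ, the gene of lysozyme, which intestinal Paneth cells also make, had signals of 45.1 in inhibitor-treated cells, 446 in SCD1-KO cells and 11.0 with DMSO. CD3E, a T cell receptor subunit, had 92.1, 58.7 and 106.1, ITGAM, a myeloid integrin, 82.9, 54.6 and 93.2, and CSF3R, the granulocyte growth factor receptor, 136.3, 14.8 and 42.6. The other 5 leukocyte markers, PTPRC and CD14 among them, stayed under 56.6 on each array, and the part of leukocyte-type RNA in the chemokine differences was not tested. Of 8 fibroblast and endothelial markers, 3 lay above 56.6 on each array, but not the same 3. COL1A1, a collagen, had signals of 1409 in inhibitor-treated cells, 1090 in SCD1-KO cells and 1128 with DMSO. PECAM1, an endothelial adhesion protein, had 252.6, 142.1 and 249.2, and DCN, a matrix proteoglycan, 46.1, 78.3 and 81.9. COL1A2, another collagen, had 58, 44.3 and 5.2, so in inhibitor-treated cells COL1A2 and not DCN was above 56.6. In SCD1-KO cells EPCAM, CDH1 and CLDN7, genes of epithelial adhesion, were 2.46-fold, 2.78-fold and 2.36-fold lower than with DMSO and KRT20 was 3.70-fold higher, and the part of this in the chemokine differences was not tested. SCD itself had a geometric mean signal of 14919 in inhibitor-treated cells, 5506 in SCD1-KO cells and 2907 with DMSO. Since the deleted part is not placed on its probe sets, this does not check the knockout.

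Of the 5 chemokine genes tested, all 5 were at least 2-fold higher in inhibitor-treated cells and all 5 in SCD1-KO cells than with DMSO. Over all 12321 tested genes, 2.18% were called higher and 3.30% lower in inhibitor-treated cells, 3.12% higher and 3.93% lower in SCD1-KO cells, and 1.09% higher in both. The median log2 ratio of the 5 genes was 3.12 in inhibitor-treated cells and 3.92 in SCD1-KO cells, beside -0.087 and -0.011 for all tested genes. Both ratios use the same DMSO array, and since the genes were chosen on these ratios, nothing is read from the counts.

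CXCL8, or interleukin-8, the main neutrophil chemoattractant of human epithelium, had signals of 4587 in inhibitor-treated cells, 8523 in SCD1-KO cells and 106.5 with DMSO in its first probe set (202859_x_at). In its second (211506_s_at) they were 1554, 2641 and 26.0. Both probe sets gave the same order of the arrays. On the deposited signals their log2 ratios were 5.43 and 5.90 in inhibitor-treated cells and 6.32 and 6.67 in SCD1-KO cells. The DMSO signal of the second was under 56.6, so that probe set could not have passed the filter without a difference. It was higher by at least 27.5-fold in inhibitor-treated cells and by at least 46.7-fold in SCD1-KO cells, beside 43.1-fold and 80.0-fold for the first. As the median of the probe sets CXCL8 was higher by at least 34.4-fold in inhibitor-treated cells and by at least 61.1-fold in SCD1-KO cells. With dim signals raised, it ranked 1 of 12321 tested genes in both ratios.

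CXCL1, which was first described as a melanoma growth factor, had signals of 874 in inhibitor-treated cells, 1078 in SCD1-KO cells and 131.6 with DMSO. It was 6.64-fold and 8.19-fold higher than with DMSO, and the treated and knockout arrays differed little. CXCL3 had signals of 444 in inhibitor-treated cells, 874 in SCD1-KO cells and 114.3 with DMSO, or 3.89-fold and 7.65-fold higher. It was the smallest difference of the 5 in inhibitor-treated cells on the deposited signals, at a log2 ratio of 1.96, and its signal lay above 56.6 on all 3 arrays.

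CXCL2, a paralog of CXCL1 and CXCL3, was read differently by its 3 probe sets. In 209774_x_at, the one kept, its signals were 816 in inhibitor-treated cells, 1413 in SCD1-KO cells and 93.6 with DMSO (8.72-fold and 15.1-fold higher). Probe set 1569203_at had 9.90, 64.5 and 3.6 on the same arrays, so that only SCD1-KO cells exceeded 56.6. Probe set 230101_at had 14.1 in inhibitor-treated cells, 39.6 in SCD1-KO cells and 39.7 with DMSO, all under 56.6. The suffix _x_at marks probe sets with probes that can match other transcripts, and the part of CXCL1 and CXCL3 RNA in this signal was not tested. With the dim probe sets let in, the median log2 ratio of CXCL2 in inhibitor-treated cells was 1.46.

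CCL20 had signals of 130.4 in inhibitor-treated cells, 612 in SCD1-KO cells and 2.5 with DMSO. Its DMSO signal stood at percentile 3.76 of that array, so only a bound can be given. CCL20 was higher by at least 2.30-fold in inhibitor-treated cells and by at least 10.8-fold in SCD1-KO cells. On the deposited signals it ranked 1 of 12321 tested genes in both ratios, but with dim signals raised it ranked 150 in inhibitor-treated cells and 3 in SCD1-KO cells.

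CXCL5 and CXCL6 stayed under 56.6 on every array. CXCL6 had signals of 8.0 in inhibitor-treated cells, 2.85 in SCD1-KO cells and 6.30 with DMSO. The 3 probe sets of CXCL5 lay between 1.30 and 10.6 in inhibitor-treated cells, between 1.06 and 19.0 in SCD1-KO cells and between 8.10 and 13.3 with DMSO, and their order over the arrays differed from one to the next. No fold is given for either gene. Both promoters hold GGAATTTCC, as do those of the 4 CXC genes that were higher.

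**Figure D1:**
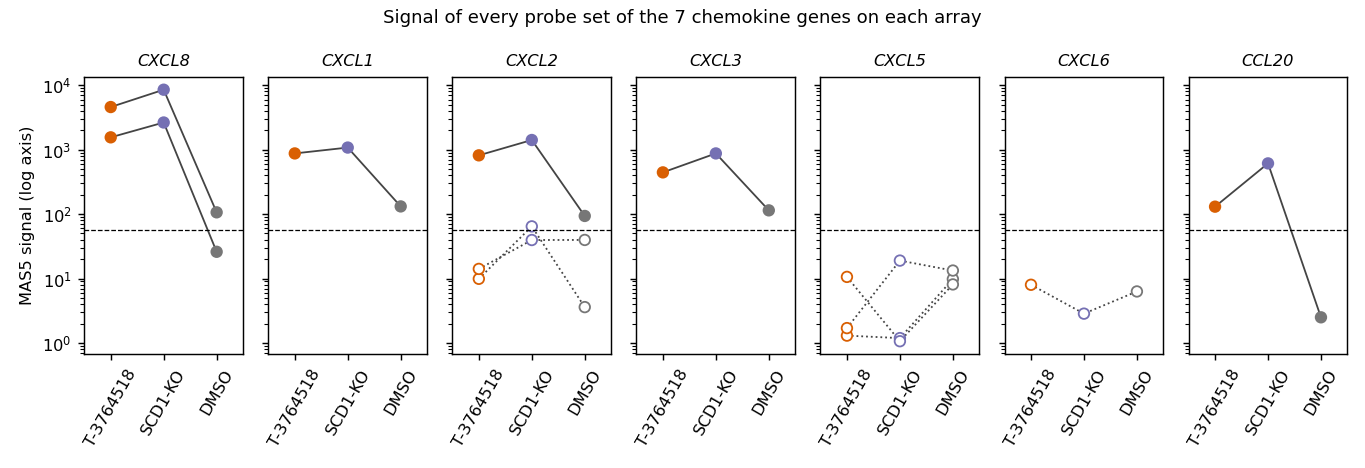
MAS5 signal (log axis) of every probe set of the 7 genes on the T-3764518, SCD1-KO and DMSO arrays, with lines joining the values of 1 probe set. Filled points are kept probe sets, open points those under the filter, and the dashed line is the signal of 56.6; the 6 kept probe sets are lowest with DMSO and highest in SCD1-KO cells, and no point of CXCL5 or CXCL6 reaches the line.

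**Figure D2:**
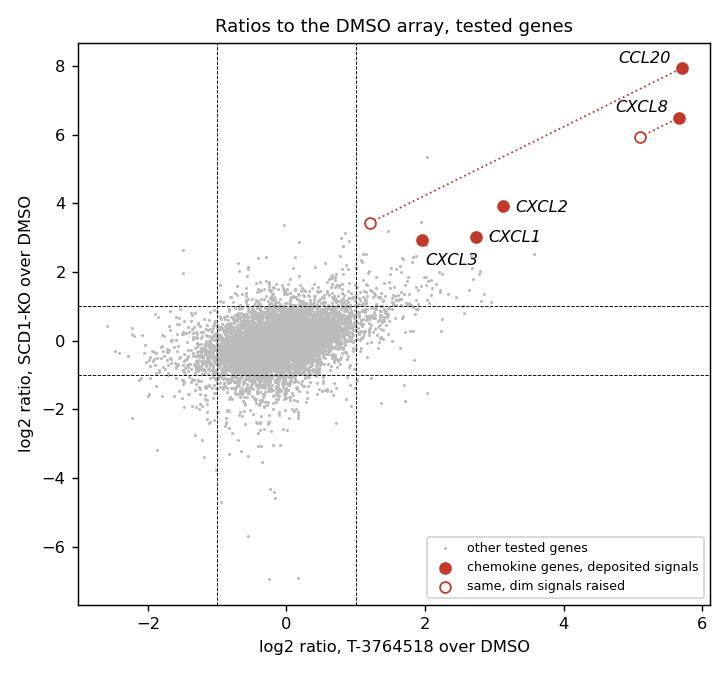
Log2 ratio to the DMSO array in inhibitor-treated cells (horizontal) and in SCD1-KO cells (vertical) for the 12321 tested genes, with the 5 tested chemokine genes in red and dashed lines at 2-fold. Open red points show CXCL8 and CCL20 with signals under 56.6 raised to it, which moves CCL20 far to the left while CXCL8 stays apart from the other genes.

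SCD1-KO cells were also set against SCD1-WT cells treated in inhibitor-treated cells, a comparison that leaves out the DMSO array. All 5 tested chemokine genes had the higher signal in SCD1-KO cells, but only CCL20, at 4.70-fold, passed 2-fold. CXCL3 was 1.97-fold, CXCL8 1.78-fold, CXCL2 1.73-fold and CXCL1 1.23-fold. Of all tested genes, 4.52% were called higher and 3.10% lower in SCD1-KO cells than in inhibitor-treated cells. The median log2 ratio was 0.83 for the 5 genes and 0.057 for all tested genes. Probe sets of the same gene differed at a similar signal with an SD of 0.35 on the log2 scale, or 0.64 in the bin of CCL20. Bins were set by the mean signal of all 3 arrays, so the DMSO signal put CCL20 in the lowest one. The log2 ratio of 0.30 for CXCL1 was under 1 SD and the other 4, from 0.79 to 2.23, were over 1 SD, which is a scale and not a test. That SD does not cover differences between cultures.

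The CXC genes stand side by side on chromosome 4, and CCL20 on chromosome 2. From CXCL8 to CXCL2 the RefSeq order holds 9 coding genes: CXCL8, CXCL6, PF4V1, CXCL1, PF4, PPBP, CXCL5, CXCL3 and CXCL2. CXCL8, CXCL1, CXCL3 and CXCL2 were higher in inhibitor-treated cells and in SCD1-KO cells, and the 5 genes between them stayed under the filter. PPBP, the platelet chemokine and the remaining CXCR2 ligand, had signals of 3.20 in inhibitor-treated cells, 17.0 in SCD1-KO cells and 2.5 with DMSO. PF4, platelet factor 4, had 36.6, 10.9 and 48.1 on the same arrays, and its variant PF4V1 3.4, 30.6 and 10.3. On the CXCL8 side RASSF6, a Ras-association domain protein, had signals of 525 in inhibitor-treated cells, 906 in SCD1-KO cells and 360 with DMSO, 1.46-fold and 2.52-fold higher. On the CXCL2 side MTHFD2L, a mitochondrial folate enzyme, had log2 ratios of -0.36 in inhibitor-treated cells and 0.086 in SCD1-KO cells. The epidermal growth factor ligands EREG and BTC had 0.00040 and 0.11 in inhibitor-treated cells and -0.27 and -0.28 in SCD1-KO cells, and the 2 EREG probe sets had opposite signs in inhibitor-treated cells (-0.67 and 0.67). EPGN and AREG had no probe set assigned to 1 gene.

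**Figure D3:**
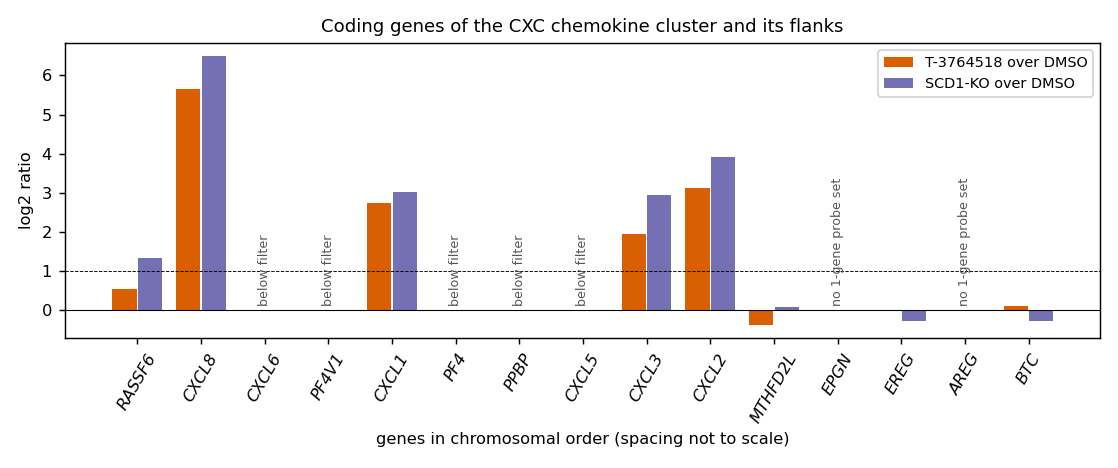
Log2 ratios to DMSO in inhibitor-treated cells (left bar) and in SCD1-KO cells (right bar) for the coding genes of the chromosome 4 cluster and its flanks, in RefSeq order with spacing not to scale and a dashed line at 2-fold. The tall bars belong to CXCL8, CXCL1, CXCL3 and CXCL2, between which 5 genes lie under the filter, and RASSF6 passes 2-fold in SCD1-KO cells.

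The 7 chemokine receptors examined were all under the filter. CXCR2 had signals of 23.5 in inhibitor-treated cells, 30.2 in SCD1-KO cells and 20.2 with DMSO, CXCR1 14.9, 17.4 and 14.5, and CCR6 20.4, 9.01 and 13.9. ACKR1, a decoy receptor for several of the CXC ligands, had 8.10, 5.22 and 4.0 on these arrays, and ACKR2, a decoy for CC chemokines, 31.8, 9.90 and 19.7. CCRL2, a chemokine receptor-like protein, had 3.30, 24.4 and 7.40, and GPR75, an orphan-type receptor, 19.8, 38.6 and 84.4. Other chemokines were largely under the filter as well. Of 34 on the list, 29 had a probe set assigned to 1 gene and 2 passed the filter. CXCL16, a membrane-bound ligand of CXCR6, had log2 ratios of -0.15 in inhibitor-treated cells and -0.59 in SCD1-KO cells, and CX3CL1, or fractalkine, -0.020 and 0.28.

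The list of 17 tested transcriptional regulators held genes of NF-kB, AP-1 and C/EBP type and also EGR1 and IRF1. Of the list, 15 had a log2 ratio above 0 in inhibitor-treated cells and 13 in SCD1-KO cells. Among all tested genes the shares were 41.0% and 48.9%. Of the 17, 4 were called higher and none lower in inhibitor-treated cells, and 6 higher and 1 lower in SCD1-KO cells, where 2.18% and 3.12% of all tested genes were called higher and 3.30% and 3.93% lower. The list medians were 0.63 and 0.58 on the log2 scale, beside -0.087 and -0.011 for all tested genes. The list was chosen with earlier results of these data known, so nothing is read from its counts, signs or medians. RELB, the NF-kB subunit of the non-canonical pathway, had signals of 502 in inhibitor-treated cells, 508 in SCD1-KO cells and 170.6 with DMSO (2.94-fold and 2.98-fold higher). NFKB2, its partner, was 2.08-fold and 2.26-fold higher, whereas RELA, NF-kB p65, and NFKB1, the precursor of p50, had log2 ratios of -0.047 and 0.31 in inhibitor-treated cells and of -0.076 and 0.27 in SCD1-KO cells. NFKBIA, the inhibitor IκBα and itself an NF-kB target, had signals of 2667 in inhibitor-treated cells, 4829 in SCD1-KO cells and 1635 with DMSO, 1.63-fold and 2.95-fold. TNFAIP3, the feedback inhibitor A20, was 1.75-fold and 2.84-fold, and NFKBIZ, a nuclear co-activator, 1.93-fold and 2.39-fold. FOSL1, an AP-1 subunit, had log2 ratios of 0.71 and 1.23. JUN, an AP-1 subunit, was 2.77-fold higher in inhibitor-treated cells and 1.92-fold in SCD1-KO cells, and CEBPG, a C/EBP family member, 2.61-fold and 1.46-fold. FOS, the other classic AP-1 subunit, was 0.908-fold in inhibitor-treated cells and 2.78-fold lower in SCD1-KO cells. SCD1-KO cells and inhibitor-treated cells differed by 2-fold in 1 of these genes, FOS, which was lower in SCD1-KO cells. Over the other settings tried, the regulators called higher in inhibitor-treated cells ran from 2 of 14 tested, under a filter at percentile 75, to 6 of 17. The 6 were found with the arrays scaled to 1 median or with no filter. The shares of all tested genes were 1.89% under that filter, 4.47% with that scaling and 8.50% with no filter. In SCD1-KO cells the regulators called higher ran from 2 of 11, without probe sets marked _s_at or _x_at, to 7 of 17 with that scaling or with no filter. There the shares of all tested genes were 3.44% without those probe sets, 4.63% with that scaling and 9.02% with no filter.

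**Figure D4:**
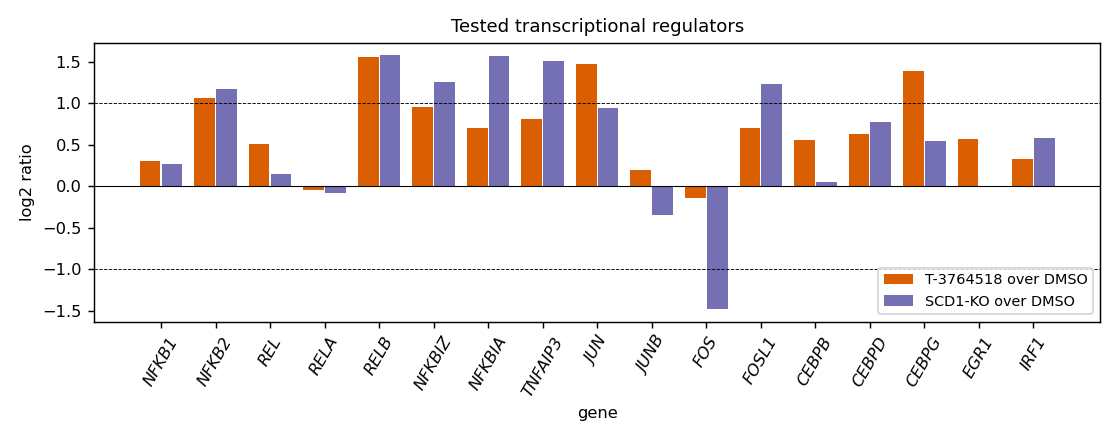
Log2 ratios to DMSO in inhibitor-treated cells (left bar) and in SCD1-KO cells (right bar) for 17 tested transcriptional regulators, with dashed lines at 2-fold higher and lower. RELB and NFKB2 pass 2-fold in both, NFKBIZ, NFKBIA, TNFAIP3 and FOSL1 only in SCD1-KO cells, JUN and CEBPG only in inhibitor-treated cells, and FOS is the only one below the lower line.

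Of 9 tested genes for proteins that bind or degrade chemokine-type mRNAs, ARID5A, which stabilizes inflammatory transcripts, was called higher in inhibitor-treated cells (2.49-fold, and 1.48-fold in SCD1-KO cells). None was called in SCD1-KO cells, where ZFP36L1, a destabilizer, had a log2 ratio of 0.39. Of 11 tested cytokines and receptors that can induce these chemokines, none was called higher than with DMSO. Once the arrays were scaled to 1 median, 2 were in SCD1-KO cells, beside 4.63% of all tested genes. With no filter 3 of 17 were in inhibitor-treated cells and 3 in SCD1-KO cells, beside 8.50% and 9.02% of all genes. Without these changes 2.18% and 3.12% of all tested genes were called higher in the 2 ratios to DMSO. Nothing is read from the counts of these short lists. IL1RAP, the shared co-receptor of the interleukin-1 family, was 2.09-fold lower in inhibitor-treated cells and lower by 3.16-fold in SCD1-KO cells. IL18 had a log2 ratio of 0.25 in inhibitor-treated cells and was 2.47-fold lower in SCD1-KO cells. After each of the 3 other normalizations IL1RAP was no longer 2-fold lower in inhibitor-treated cells. Against inhibitor-treated cells, SCD1-KO cells had IL18 2.93-fold lower and TLR3, a receptor for double-stranded RNA, at least 3.01-fold higher. TNF stayed under 56.6 on each array, at 48.7 in inhibitor-treated cells, 6.75 in SCD1-KO cells and 16.0 with DMSO, as did IL6, at 18.3, 33.3 and 15.0. IL1A was under the filter, with geometric mean signals of 60.4, 49.97 and 21.8.

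The tested genes outside the list whose pair of log2 ratios lay nearest to the medians of the 5 chemokine genes were, in order of Euclidean distance, HMOX1, the inducible heme oxygenase (0.84), PCOTH (1.07), the pseudogene NMRAL2P (1.26), the long non-coding RNA LINC01512 (1.45) and UPP1, a uridine phosphorylase (1.53). Each pattern rests on 3 arrays, and the distances use the deposited signals. PCOTH, NMRAL2P and LINC01512 had DMSO signals of 13.4, 30.9 and 16.4, all dim. With dim signals raised, PCOTH was at least 2.84-fold higher in inhibitor-treated cells and 1.83-fold in SCD1-KO cells, and LINC01512 3.44-fold and 1.68-fold. NMRAL2P was at least 2.11-fold and 6.06-fold higher. The nearness of PCOTH and LINC01512 thus rests on their dim DMSO signals. For NMRAL2P the folds on the deposited signals were 3.86 and 11.1, so its nearness rests in part on its dim DMSO signal. HMOX1 had signals of 4183 in inhibitor-treated cells, 4636 in SCD1-KO cells and 543 with DMSO, and UPP1 1682, 1454 and 265. NMRAL2P, like CCL20, was higher in SCD1-KO cells than in inhibitor-treated cells, with signals of 343 and 119.3.

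Apart from the chemokines, 131 genes had GGAATTTCC within 250 bases before a start, of which 48 were tested. In inhibitor-treated cells, 2 of these (4.17%) were called higher and none lower, and in SCD1-KO cells 4 (8.33%) were higher and none lower, beside the shares of all tested genes given above. Called higher in inhibitor-treated cells were NFKBIB, an IκB protein (2.91-fold), and TSLP, an epithelial cytokine (3.59-fold), and in SCD1-KO cells MIA (3.70-fold), NFKBIA, NFKBIZ and NFKBIB (2.04-fold). For the NF-kB consensus, 813 genes were tested, of which 2.34% were called higher and 2.95% lower in inhibitor-treated cells, and 4.43% higher and 3.81% lower in SCD1-KO cells. These motif counts were made after the values of the chemokines were seen.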

How the data were processed

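Gene expression was measured on 3 Human Genome U133 Plus 2.0 Arrays, 1 per condition. The authors deposited linear signal intensity values, 1 for each probe set and array. MAS5, which subtracts a local background and so leaves dim signals with a large error, is the tool named in the submitters' notes, without a version. The median deposited signal was 56.7 in inhibitor-treated cells, 62.4 in SCD1-KO cells and 68.8 with DMSO, and the number of arrays limits the precision. The mean without the lowest and highest signals was 498.9, 499.9 and 498.9, so by that measure the deposited arrays already shared a scale. Signals of the SCD1-KO array were given to more digits than those of the others. Whether that array was processed apart was not tested.

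Gene names came from GEO's annotation of the platform. Controls aside, it gives 1 symbol to 41091 probe sets, several to 1801 and does not list 11721. Of the 41091, 41037 matched RefSeq genes of GRCh38.p14 by gene ID. The gene table gave names and order only, and promoter positions are those of the RefSeq promoter sequences. Log2 ratios, the filter at percentile 50 and the 2-fold call are described with the results. With 1 array per condition no test was run across genes. Error was gauged, in 5 bins of signal, by the SD among probe sets that read 1 gene. Named genes were all 7 chemokine genes, every cluster neighbour and receptor with a usable probe set, up to 4 called genes per ratio and direction of each other list, or the 2 farthest from 0, and the 5 genes nearest in pattern. RELA, NFKB1, FOSL1, EGR1, IRF1, TNF, IL6, IL1A, COL1A2, CDX2, VIL1, the leukocyte markers other than LYZ, and the genes named for a promoter motif lie outside this rule. They were chosen after their values were seen. The members and lists were chosen with earlier results of these data known. Promoter motifs were searched on both strands, and promoters were aligned globally with Biopython 1.88. The calling step was tested on simulated data with less noise than the spread between probe sets here. That test therefore does not gauge calls near 2-fold or at dim signals, and no result rests on it. Python 3.11.15, numpy 2.4.6, pandas 2.3.3, statsmodels 0.14.6 and matplotlib 3.10.9 were used. Alternatives were 3 other normalizations, other filters, other treatments of low signals, other ways to combine probe sets, and thresholds of 1.5-fold and 3-fold.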

Additional observations from a re-analysis of the deposited data

Results flagged for a closer look

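Probe set 1569203_at of CXCL2, which the filter left out, had a signal of 64.5 in SCD1-KO cells, above the filter signal of 56.6, against 3.6 with DMSO. It was singled out as a signal in data that the comparisons did not use. In inhibitor-treated cells it had 9.90, under that signal.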

How the results depend on the processing

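The counts of chemokine genes at least 2-fold higher than with DMSO moved only where fewer genes were left to test: 3 in inhibitor-treated cells and 3 in SCD1-KO cells, of 3 tested, both under a filter at percentile 75 and without probe sets marked _s_at or _x_at, which removes CXCL8 and CXCL2. Quantile normalization kept 4 genes, all higher, and dropped CCL20. Between SCD1-KO cells and inhibitor-treated cells the count was 1, and it was 0 after quantile normalization, 0 under the filter at percentile 75, 2 with no filter and 4 at a threshold of 1.5-fold.

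The median log2 ratio in inhibitor-treated cells was 3.12, and 3.4 after scaling to 1 median, 1.96 with no filter, 2.92 with an offset of 16.5 added to signals, 2.73 with dim signals raised and 2.73 without the _s_at and _x_at probe sets. In SCD1-KO cells it was 3.92, and 3.55 after quantile normalization, 3.03 with no filter, 3.70 with the offset, 3.44 with dim signals raised and 3.03 without those probe sets. Of 135 single-gene values, 125 stayed within the spread between probe sets and 10 moved, all of CCL20, CXCL8 or CXCL2, and none changed sign. Many of the 135 could not move. CXCL1, CXCL3 and CCL20 have 1 probe set each, so other ways to combine probe sets or no filter returned the same value. The count of 125 is therefore no measure of robustness. Scaling to 1 median shifted the median of all tested genes by 0.28 in inhibitor-treated cells and 0.14 in SCD1-KO cells, and then 77.2% and 61.0% of called genes were higher, against 39.8% and 44.3%; between SCD1-KO cells and inhibitor-treated cells the shift was -0.14, and 42.3% were higher, against 59.3%. With no filter 7 chemokine genes were tested, as CXCL5 and CXCL6 came in, and CXCL2 had a log2 ratio of 1.46 in inhibitor-treated cells. With dim signals raised, CCL20 had 1.20 there in place of 5.70. The cause of the other changes was not tested where fewer genes did not produce them. No paired analysis was possible because each condition had 1 array.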
